A study of Sus scrofa with 20 samples.

Results

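The growth hormone and insulin-like growth factor (IGF) axis was examined in testis and liver of boars with divergent androstenone levels. Of 9 genes listed for the axis, 6 were found among the 21755 reference IDs of the count data, of which 6654 could be given a gene symbol through their RefSeq accession. These were GHR (NM_214254.2), IGF1 (NM_214256.1), IGF1R (NM_214172.1), IGFBP1 (NM_001195105.1), IGFBP3 (NM_001005156.1) and IGFBP5 (NM_214099.1), each with a single ID. IGF2, IGF2R and IGFBP2 were not analysed here.

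Growth hormone from the pituitary binds its receptor GHR, which acts through the kinase JAK2 and the STAT factors, and in liver this induces IGF1 that is released into the blood as an endocrine growth factor. IGF1 acts on its receptor IGF1R, and the IGF binding proteins carry it and set how much of it is free. Many tissues, testis among them, also make IGF1 for local use, and in testis it is known to act on Leydig, Sertoli and germ cells.

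RNA-Seq was done on the testis and the liver of 10 entire boars, 5 with high and 5 with low androstenone in neck fat, which gave 20 libraries of 1 sample each, with no pooling. Androstenone is a testicular steroid that is degraded mainly in liver, and its storage in fat is a cause of boar taint. The labels give all animals as a Duroc x F2 cross, in which the F2 came from F1 animals (Leicoma x German Landrace) and Large White pigs, and their age as 116 days. No treatment is named, and the groups were set by the androstenone level itself, so that the comparison is between selected extremes of a population.

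The testis libraries held between 6161397 and 15975386 counts (median 9856191) and the liver libraries between 5796973 and 26783002 (median 10727837), so that 3 counts, below which a value was taken as not separable from 0, corresponded to at most 0.518 counts per 1000000 (CPM) before any further scaling. This floor and all intervals on counts cover counting error only. The tissue labels fitted the markers. The 5 hepatocyte genes measured of 11 listed summed to between 85559 and 248670 CPM in liver against 32.9 to 120.5 CPM in testis, and the 4 Leydig cell genes of 7 summed to between 693.6 and 3406 CPM in testis against 1.46 to 23.9 CPM in liver. In these bulk samples, fewer cells of a type and less RNA per cell cannot be told apart.

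Liver and testis were compared first, to set the endocrine beside the local source. GHR, IGFBP1 and IGFBP3 were far higher in liver, and IGFBP5 was moderately higher. For IGF1 itself and for IGF1R the tissues did not differ beyond the spread between libraries with TMM scaling, and the sign of the difference turned with another. Of the 6 genes, 4 were called higher in liver and 0 lower by edgeR's quasi-likelihood test (adjusted p under 0.05 and at least 1.5-fold). Among all 19065 IDs tested, 75.7% were called, 32.2% higher and 43.5% lower in liver. The tissues did not overlap for 3 of the 6 genes, against 42.8% of all IDs, and in these 3 liver was above testis, as in 15.3% of all IDs. Levels below are CPM scaled by the TMM method, listed from replicate 1 to replicate 5 of each group, where the number is only a name. Levels of different genes are not compared, since the counts are not corrected for transcript length.

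**Figure D1:**
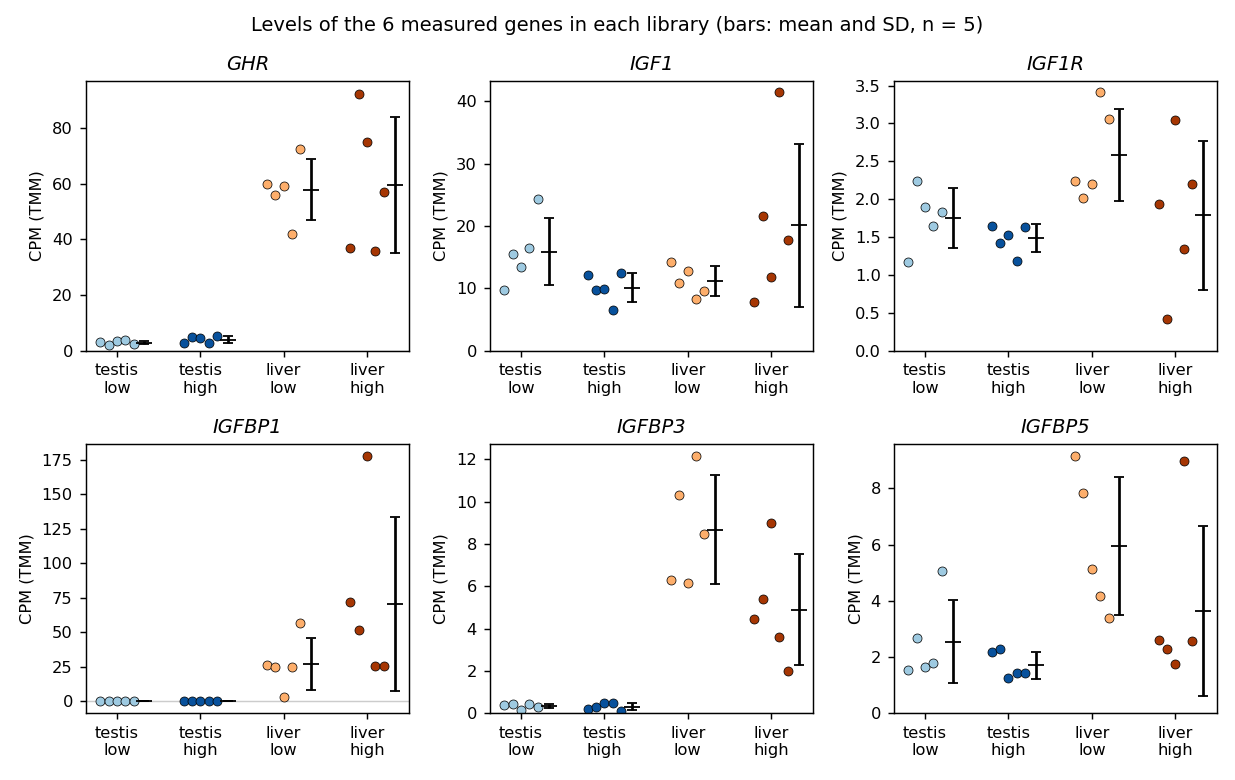
Level of each of the 6 measured genes in the 20 libraries, in TMM-scaled CPM on a linear axis, for testis and liver with low and high androstenone. Points are libraries and bars are the mean and SD of 5. GHR, IGFBP1 and IGFBP3 lie higher in all 10 livers than in any testis, while the IGF1 values of the tissues lie across each other.

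GHR, the receptor through which growth hormone enters the axis, had 3.02, 2.03, 3.36, 3.78 and 2.47 CPM in testis with low androstenone. With high androstenone, the testes had 2.66, 4.80, 4.69, 2.62 and 5.28 CPM. Thus 3 of the 5 high testes lay above all low testes, and the groups overlapped. The low livers had 59.9, 56.0, 59.3, 41.9 and 72.5 CPM of GHR, and the high livers had 37.1, 92.5, 75.1, 35.9 and 57.2 CPM. Every liver was above every testis. The high livers spread to both sides of the low ones, with 2 above and 2 below all of them, and their SD was 24.5 CPM against 10.96 in the low livers. Over both androstenone groups the mean was 58.7 ± 17.9 CPM in liver and 3.47 ± 1.12 in testis (SD, n = 10), and the fitted log2 fold change of liver over testis was 4.09 (SE 0.22, edgeR adjusted p = 6.3e-15), or 17.0-fold.

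IGF1, the ligand, was read 1974 times over the 10 testes and 1126 times over the 10 livers. The low testes had 9.73, 15.5, 13.5, 16.5 and 24.3 CPM. The high testes had 12.1, 9.68, 9.87, 6.54 and 12.5 CPM, so that 4 of the 5 low testes lay above all high ones. In the low livers IGF1 was at 14.3, 10.9, 12.8, 8.34 and 9.504 CPM, and in the high livers at 7.83, 21.7, 11.9, 41.5 and 17.8 CPM. There the order was turned, with 3 of 5 high livers above all low livers and replicate 4 alone holding 41.2% of the summed level of its group. Group means ran from 10.1 ± 2.37 CPM in high testis over 11.2 ± 2.40 in low liver and 15.9 ± 5.36 in low testis to 20.1 ± 13.1 in high liver (SD, n = 5), and the ranges of neighbours in this order overlapped. Between the tissues the ranges overlapped, and liver exceeded testis in 52 of the 100 possible pairs. The log2 fold change of liver over testis was 0.23 (SE 0.24, 95% interval -0.23 to 0.69, edgeR adjusted p = 0.374), and with TMM scaling the interval bounds a difference in either direction to less than 1.62-fold. With library totals alone the value was -0.71, outside this interval.

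IGF1R, the receptor kinase that IGF1 activates, was a low-count gene, with 10 to 43 counts per testis library and 2 to 42 per liver library. Low testes had 1.17, 2.24, 1.90, 1.64 and 1.83 CPM, and high testes had 1.65, 1.43, 1.53, 1.19 and 1.63 CPM. The low livers had 2.24, 2.02, 2.20, 3.41 and 3.05 CPM. High livers had 1.93, 0.417, 3.05, 1.35 and 2.20 CPM, where the value of replicate 2 rests on 2 counts and is not separable from 0. Of the 10 livers 3 were above all testes and 1 was below all of them. The log2 fold change of liver over testis was 0.44 (SE 0.24, 95% interval -0.03 to 0.90, edgeR adjusted p = 0.0957).

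IGFBP1, a binding protein made by hepatocytes and lowered by insulin, was at 26.0, 24.7, 2.93, 24.6 and 56.5 CPM in the low livers. The high livers had 72.2, 51.7, 178, 25.8 and 25.3 CPM. It was the most variable of the 6 genes between livers, from 2.93 CPM in low replicate 3 to 178 CPM in high replicate 3, with a coefficient of variation of 101.8% over the 10 livers. In testis it was at the limit of detection, with 4 counts in all, no library above 1 count and 6 libraries at 0. Pooled over libraries, the 4 testis counts against 4925 liver counts gave a ratio of 2201 (exact 95% counting interval 859 to 8080), and the fitted log2 fold change was 10.28 (SE 0.64, edgeR adjusted p = 1.4e-13). The least of the livers, at 20 counts, was still above every testis.

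IGFBP3, the main carrier of IGF1 in blood, had between 1 and 8 counts in each testis, which corresponded to 0.389, 0.427, 0.177, 0.438 and 0.316 CPM in the low testes and 0.213, 0.303, 0.479, 0.476 and 0.0960 CPM in the high testes. The low livers had 6.28, 10.3, 6.16, 12.1 and 8.49 CPM, and the high livers 4.45, 5.41, 8.99, 3.59 and 2.02 CPM. All livers were above all testes, and 4 of 5 high livers were below all low livers. The log2 fold change of liver over testis was 4.32 (SE 0.30, edgeR adjusted p = 1.1e-12), or 20.01-fold. The group means were 8.67 ± 2.58 CPM in low liver, 4.89 ± 2.61 in high liver, 0.349 ± 0.108 in low testis and 0.313 ± 0.167 in high testis (SD, n = 5).

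IGFBP5, a binding protein that is made by many cell types and held in the extracellular matrix, had 1.56, 2.67, 1.63, 1.81 and 5.06 CPM in the low testes and 2.18, 2.29, 1.25, 1.43 and 1.44 CPM in the high testes. In liver it was at 9.15, 7.85, 5.14, 4.17 and 3.39 CPM with low and 2.61, 2.29, 1.74, 8.98 and 2.57 CPM with high androstenone. High liver replicate 4, which also had the highest IGF1 level, stood apart from the other 4 high livers, which were all below every low liver. Between the tissues the ranges overlapped, with liver above testis in 86 of 100 pairs, and the log2 fold change was 1.11 (SE 0.30, edgeR adjusted p = 0.0018). This difference ranged from 0.80 without high liver replicate 4 to 1.34 without low testis replicate 5.

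The tissue comparison depended on how libraries were scaled. The 10 most abundant IDs held between 24.8% and 40.6% of the counts of a liver and between 8.10% and 18.2% of those of a testis. With TMM the median log2 fold change of all IDs was -0.31. It was -0.36 with RLE factors, 0.04 with upper quartile factors and -1.28 with library totals alone. GHR, IGFBP1 and IGFBP3 were called higher in liver under each of the 4 scalings. IGF1 turned with the scaling, since it was called higher in liver with upper quartile factors (log2 fold change 0.61, edgeR adjusted p = 0.0265) and lower with library totals (-0.71, edgeR adjusted p = 0.0107). The IGF1R difference was 0.78 (edgeR adjusted p = 0.0039) and -0.56 (edgeR adjusted p = 0.0398) under the same scalings, and the IGFBP5 call was lost with library totals (0.18, edgeR adjusted p = 0.608). Under the 4 scalings IGF1 lay 0.54 to 0.57, IGF1R 0.72 to 0.74 and IGFBP5 1.42 to 1.46 above the median of all IDs. A change of scaling shifts all IDs by nearly the same amount, so this constancy is built in and is no check of these genes.

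**Figure D2:**
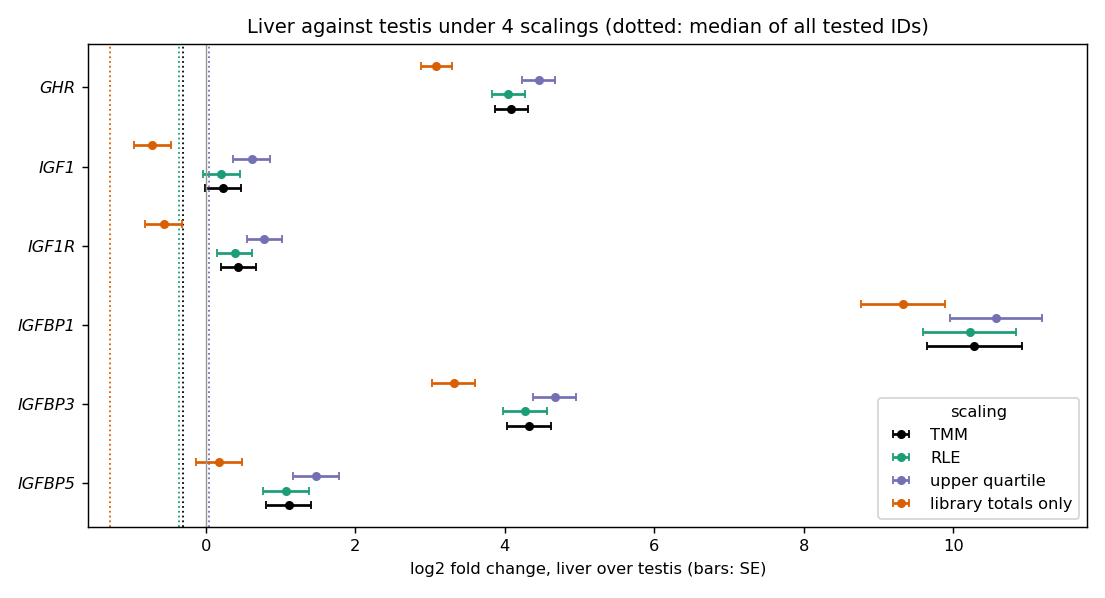
Log2 fold change of liver over testis with its SE for the 6 genes under 4 library scalings, each in its own colour, with a dotted line at the median of all tested IDs under the same scaling. GHR, IGFBP1 and IGFBP3 lie above 3 on the log2 axis under all 4, while IGF1 and IGF1R fall on either side of 0.

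Further genes of the pathway were taken from 4 lists, 72 genes in all, of which 37 were found and 35 were tested between the tissues. By the same criteria 23 were called higher and 7 lower in liver, and 5 were not called. These are 65.7% higher and 20% lower, against 32.2% and 43.5% of all IDs. Of the 23, 7 came from the list of liver regulators and hormone-responsive liver genes, which was made of liver genes to begin with. The pooled share is therefore not a result about the pathway. In the list of growth hormone receptor signalling, 8 of 10 genes tested were called higher and 0 lower, with a median log2 fold change of 1.67 against -0.31 over all IDs. With library totals alone 5 were higher and 1 was lower, PTPN1, a phosphatase that acts on JAK2. All 10 lay above the median of all IDs under each of the 4 scalings. As said above for single genes, this constancy is built in and is no check of the list. STAT3 ranged from 26.5 to 86.5 CPM in liver and from 2.87 to 7.59 in testis (log2 fold change 3.11, SE 0.25), with no overlap. SOCS2, a feedback inhibitor of the growth hormone receptor, had a log2 fold change of 2.57 (SE 0.51) and varied widely between livers, from 0.587 to 11.2 CPM. JAK2, the kinase bound to the receptor, had 12.5 to 24.4 CPM in liver and 3.67 to 7.37 CPM in testis (1.84, SE 0.18), and its tissues did not overlap either. The adaptors SHC1 (1.82, SE 0.16) and GRB2 (1.79, SE 0.28) were likewise higher. STAT5B, the STAT factor best known for growth hormone action, was called at 0.60 (SE 0.23, edgeR adjusted p = 0.0228). Its call was lost with RLE factors, where 0.54 was below the 1.5-fold limit, and with library totals, where its value turned to -0.42 (edgeR adjusted p = 0.0956). The value of its relative STAT5A was 0.55 (SE 0.29, edgeR adjusted p = 0.0829), which was not called, and with library totals it was -0.47.

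Among the other ligands, binding proteins and their regulators, 3 of 11 genes were called higher in liver and 5 lower, with a median of -0.68. The shares of 27.3% higher and 45.5% lower were near the 32.2% and 43.5% of all IDs. With library totals alone the counts were 2 and 7. IGFALS, which forms the ternary carrier complex with IGFBP3 in blood, had 14 counts over all testes and 793 over all livers (log2 fold change 6.56, SE 0.50). IGFBP4 was higher in liver as well (3.99, SE 0.36), at 4.37 to 20.3 CPM against 0.287 to 2.47 CPM. The binding protein IGFBP6 went the other way, with 108 counts in liver and 727 in testis (-1.86, SE 0.32), and was called lower under each of the 4 scalings. IGFBP7, a binding protein-like secreted protein, was not called with TMM (-0.51, SE 0.24, edgeR adjusted p = 0.0517) and was called lower with library totals (-1.49). The proteases PAPPA and PAPPA2 were called lower. HTRA1, another protease that cleaves IGF binding proteins, was called higher with TMM (0.82, SE 0.23), but with library totals its call was lost and its value turned to -0.13 (edgeR adjusted p = 0.634). PAPPA, which cleaves IGFBP4, had 375 counts in testis and 3 in liver, a liver to testis ratio of 0.0143 (exact 95% counting interval 0.0029 to 0.0421). Its relative PAPPA2, which cleaves IGFBP3 and IGFBP5, had 62 and 2 counts, a ratio of 0.0577 (0.0068 to 0.217). PRL, the pituitary hormone prolactin, had 24 counts in testis and 1 in liver (ratio 0.0745, interval 0.0018 to 0.457). GH1, the growth hormone gene, had 0 counts in all 20 libraries, which is below the floor of 3 counts in each.

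Insulin and IGF receptor signalling held 7 tested genes, of which 5 were called higher in liver and 2 lower (median 1.27). The shares were 71.4% higher and 28.6% lower, against 32.2% and 43.5% of all IDs, whose median was -0.31. With library totals alone the counts of the list were 3 and 2. Of all 19065 IDs, 3577 were then called higher and 11348 lower. FOXO4, a transcription factor inhibited by AKT, had the largest difference in the list (4.602, SE 0.53). It had 37 counts over all testes, with some libraries at 2 counts and so below the floor of 3, and 525 over all livers. Its livers ranged from 0.725 to 17.0 CPM. GRB10, an adaptor that restrains insulin and IGF1 receptors, followed with 2.66 (SE 0.20). The kinases RPS6KB1 (1.88, SE 0.18) and AKT1 (1.27, SE 0.33) were higher in liver, of which AKT1 lost its call with library totals (0.27, edgeR adjusted p = 0.462). AKT1 was a low-count gene, with 53 counts over all testes and 74 over all livers. MTOR, the kinase at the core of the growth-regulating mTOR complexes, was lower, at 7.47 to 19.3 CPM in liver and 17.3 to 29.9 CPM in testis (-0.95, SE 0.17).

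The 7 liver regulators and hormone-responsive liver genes were listed as genes of liver, so their direction was known beforehand. All 7 were called higher in liver under each of the 4 scalings and 0 lower (median 7.79 with TMM). TAT, a gluconeogenic aminotransferase, had 54346 counts in liver and 24 in testis (log2 fold change 11.82, SE 0.40), and PCK1, a key enzyme of gluconeogenesis, had 13428 and 6 (11.68, SE 0.51). The hepatic factor FOXA2 had 2716 counts in liver and 0 in testis, so that it was at least 1618-fold higher in liver against a floor of 3 counts summed over the 10 testes. The exact 95% counting interval of the ratio, which is two-sided, began at 1315. With FOXA2 at that bound the median of the list was 7.79 as well. FOXA1 (7.79, SE 0.40) and CEBPA (6.76, SE 0.50), further factors of hepatocyte gene expression, had 16 counts each over the 10 testes.

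**Figure D3:**
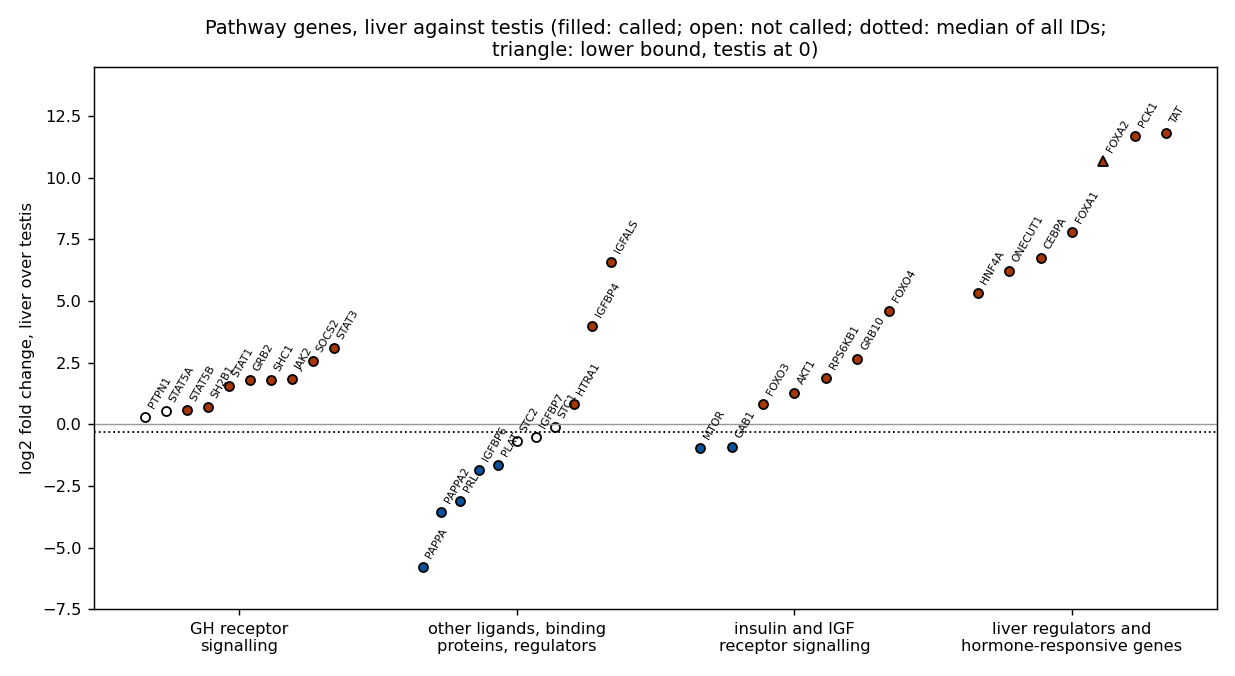
Log2 fold change of liver over testis for the 35 tested genes of the 4 pathway lists. Filled points were called, open points were not, the triangle is the lower bound for FOXA2, and the dotted line is the median of all IDs at -0.31. Genes of growth hormone receptor signalling all lie above the line, whereas those of the ligand and binding protein list lie from PAPPA at -5.79 to IGFALS at 6.56.

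High and low androstenone were compared within each tissue, to ask whether the axis differs between boars that store much or little of the steroid. No gene of the axis was called in either tissue. In testis 0 of the 5 genes tested were called, against 0.0% of all 18340 IDs, and in liver 0 of 6, against 0.0% of all 15855 IDs. At an unadjusted p under 0.05, 9.49% of all IDs passed in testis and 2.93% in liver. At that threshold 1 of the 5 genes passed in testis, IGF1, and 2 of the 6 in liver, IGF1 and IGFBP1. For 0 of the genes were the groups without overlap, against 1.86% of all IDs in testis and 0.555% in liver. IGFBP1 was too low in testis to be tested.

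In testis the value that stood out was IGF1, with a log2 fold change of high over low androstenone of -0.67 (SE 0.24, edgeR adjusted p = 0.430). Its exact two-sided permutation p was 0.0397, unadjusted, where 5 against 5 boars allow no p below 0.00794. The difference ranged from -0.79 to -0.45 when 1 sample was left out, and it was -0.45 without low replicate 5, the testis with the most IGF1 and the most IGFBP5. The other values in testis were 0.41 for GHR (SE 0.26, exact permutation p = 0.151), -0.25 for IGF1R (SE 0.25, exact permutation p = 0.262), -0.18 for IGFBP3 (SE 0.48, exact permutation p = 0.659) and -0.55 for IGFBP5 (SE 0.34, exact permutation p = 0.270). The IGFBP5 value was -0.11 without low replicate 5.

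Summed markers of several cell types also had different medians in low and high testes. The 2 measured smooth muscle or fibroblast genes of 8 listed summed to 335.7 to 873.6 CPM in low testes (median 659.6) and 189.8 to 668.8 CPM in high testes (median 371.0). The 4 measured Sertoli cell genes of 9 summed to 137.4 to 209.4 CPM (median 177.0) against 58.4 to 193.4 CPM (median 121.0), and HBB, a red cell gene, was at 25.5 to 244.6 CPM (median 96.2) against 11.7 to 47.5 CPM (median 37.2). The 2 endothelial genes of 5 summed to 13.1 to 43.8 CPM (median 40.4) in low and 16.8 to 34.9 CPM (median 28.96) in high testes. For the 2 macrophage genes of 4 the sums were 1.17 to 6.33 CPM (median 3.94) against 2.16 to 3.64 CPM (median 2.40). The 2 measured genes of 3 listed for bile duct summed to 14.4 to 67.7 CPM (median 39.7) against 21.5 to 42.5 CPM (median 24.5). The 4 Leydig cell genes of 7 had medians of 1457 and 1955 CPM and the 4 germ cell genes of 10 had medians of 1485 and 1490 CPM in low and high testes. For each of these lists the ranges of low and high testes overlapped. No marker gene of the lists was at 0 throughout testis. The part of these cell types in the IGF1 difference was not tested.

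In liver the value for IGF1 had the opposite sign, at 0.94 (SE 0.40, edgeR adjusted p = 0.9999, exact permutation p = 0.167). Without high replicate 4 it was 0.47. IGFBP1 had the largest value of the axis, at 1.43 (SE 0.62, edgeR adjusted p = 0.9999, exact permutation p = 0.143), and at 0.77 without high replicate 3 and 1.91 without low replicate 5. The adjusted p of IGFBP1 depended on the fit. Over the alternative edgeR and DESeq2 fits that kept all samples, the smallest was 0.0619, which was not called. IGFBP3 was at -0.75 (SE 0.36, edgeR adjusted p = 0.9999). Its exact permutation p was 0.0476, unadjusted, and its value ranged from -1.08 to -0.56 with 1 sample left out. IGFBP5 was at -0.65 (SE 0.46, exact permutation p = 0.119), and at -1.31 without high replicate 4. The values of IGF1R were -0.41 (SE 0.42, exact permutation p = 0.103) and of GHR 0.11 (SE 0.30, exact permutation p = 0.913, 95% interval of edgeR's fit -0.48 to 0.70), the smallest of the 6. Hepatocyte markers summed to 88399 to 248670 CPM (median 134630) in low and 85559 to 185670 CPM (median 107800) in high livers. HBB was at 576 to 3054 CPM (median 1523) against 476 to 3487 CPM (median 3187). The ranges of both overlapped between the groups. The part of these markers in the values above was not tested.

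**Figure D4:**
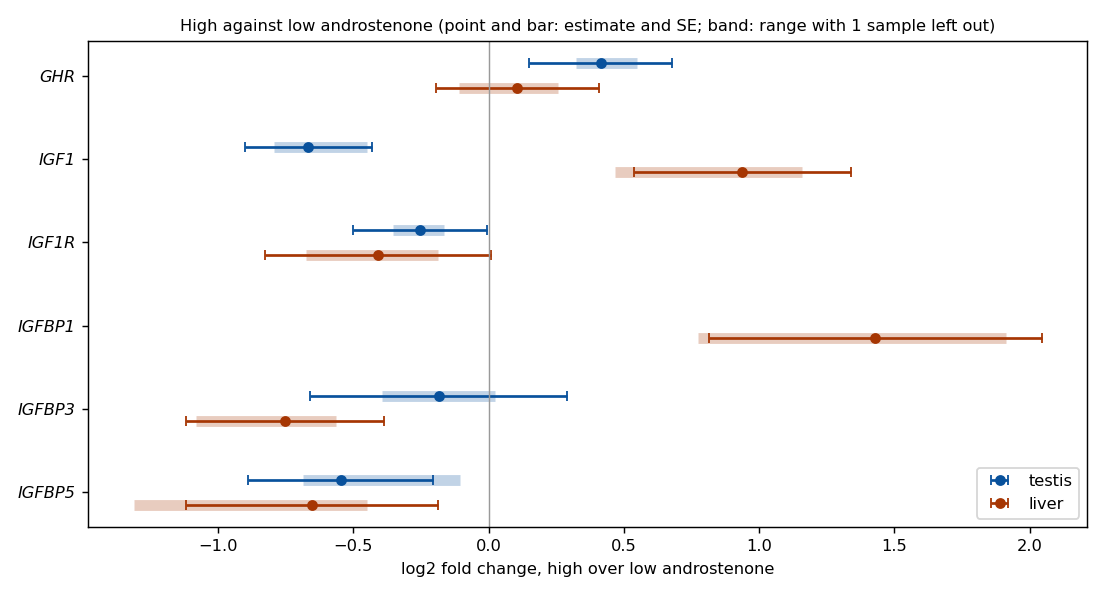
Log2 fold change of high over low androstenone with its SE for testis (blue) and liver (brown), with a pale band for the range when each sample is left out in turn. IGF1 lies at -0.67 in testis and at 0.94 in liver, and the bands of GHR in liver and IGFBP3 in testis reach across 0.

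The difference between the tissues was itself tested as an interaction. For IGF1 the liver difference exceeded the testis difference by 1.48 on the log2 scale (SE 0.47, 95% interval 0.55 to 2.41), with an unadjusted p of 0.0046 in edgeR's fit that ranked 87 of 19065 IDs and an adjusted p of 0.99999. With 1 sample left out it ranged from 1.04, without high liver replicate 4, to 1.69. Of the 6 genes 0 were called, against 0.0% of all IDs, and IGF1 alone had an unadjusted p under 0.05, as had 4.67% of all IDs. For the other 5 genes the unadjusted p was at least 0.264.

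The highest values of the 6 genes fell partly in the same and partly in different libraries. In testis, low replicate 5 had the most IGF1 and the most IGFBP5. The livers with most IGFBP1 (high replicate 3), IGF1 (high replicate 4), GHR (high replicate 2), IGF1R and IGFBP3 (both low replicate 4) and IGFBP5 (low replicate 1) were 5 different samples. Over the 10 livers, the correlation of GHR with IGF1 was r = -0.02 (permutation p = 0.957) and rho = 0.19 (permutation p = 0.607), and r was 0.51 (permutation p = 0.196) without the 2 livers farthest from the median GHR level. GHR with IGFBP1 gave r = 0.20 (permutation p = 0.600) and rho = 0.37 (permutation p = 0.298). In the 10 testes GHR with IGF1 gave r = -0.25 (permutation p = 0.496) and rho = -0.26 (permutation p = 0.472), and IGF1 with IGFBP3 gave r = -0.21 (permutation p = 0.560) and rho = -0.18 (permutation p = 0.632). No relation passed among the 4 computed, for which the smallest Benjamini-Hochberg adjusted permutation p was 0.800 for r and 0.632 for rho. Without the 2 farthest libraries r was 0.13 for GHR with IGFBP1, -0.21 for GHR with IGF1 in testis and -0.02 for IGF1 with IGFBP3.

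The IDs whose levels were most like those of the axis over the 10 livers were searched among 4073 IDs with a symbol and a mean of at least 10 counts. For GHR these were UBLCP1 (r = 0.96), UCHL3 (r = 0.96) and APOOL (r = 0.95), and for IGF1 they were C6H19orf33 (r = 0.86), CD247 (r = 0.75) and ZBTB10 (r = 0.74). The closest to IGFBP1 were AGO2 (r = 0.91), SLC26A6 (r = 0.87) and FAM49A (r = 0.83), and to IGFBP3 they were DGKA (r = 0.92), GUSB (r = 0.88) and LEO1 (r = 0.88). None of these liver neighbours was another gene of the axis. In testis the closest to IGF1 among 4579 IDs were MDK (r = 0.92), IGFBP7 of the binding protein list (r = 0.92) and CDC42EP2 (r = 0.92). All these values are the largest of 4073 or 4579 over 10 points that share library and depth, and are a description.

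The pathway lists held no called gene between the androstenone groups, 0 of 33 tested in testis and 0 of 31 in liver. In testis 2 of the 33 had an unadjusted p under 0.05 in edgeR's fit, or 6.06% against 9.49% of all IDs, so that these genes did not stand out by their number. PTPN1 had a log2 fold change of -0.51 (SE 0.22) and IGFBP7 had -0.63 (SE 0.30), and the groups of both overlapped. In liver 1 of the 31 had an unadjusted p under 0.05, or 3.23% against 2.93% of all IDs, so the list did not stand out by number there either. In liver 1 gene of the 31 had groups that did not overlap, against 0.555% of all IDs. This was HNF4A, a nuclear receptor that governs hepatocyte gene expression. The low livers had 29.2, 26.3, 29.5, 29.2 and 33.2 CPM of HNF4A, and the high livers 25.03, 21.7, 17.3, 18.2 and 17.2 CPM. Every high liver was thus below every low liver, and the exact permutation p of 0.00794, unadjusted, is the smallest that 5 against 5 allow. Its log2 fold change was -0.50 (SE 0.23, edgeR adjusted p = 0.9999), and between -0.57 and -0.44 with 1 sample left out. The unadjusted p of edgeR's fit was 0.0438. Under the alternatives it ran from 0.0090 with DESeq2 to 0.186 with the likelihood ratio test.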

How the data were processed

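RNA-Seq counts from testis and liver of 10 boars were used. Per the submitters' processing notes the reads were handled with CASAVA 1.7, BWA and SAMtools, and the authors aligned them to RefSeq mRNA and UniGene transcripts of Sscrofa 9.2. The deposited values are raw counts of reads per reference ID, not normalized. How reads that fit several transcripts were counted is not given in the sources used here, so IDs of close relatives are uncertain. Each sample listed 21785 lines for 21755 IDs, of which 10 were listed 4 times and used once. IDs were matched to symbols by accession, without version, in a RefSeq gene table of Sscrofa11.1, whose coordinates were not used. No sequences were used here.

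Groups came from the sample titles. edgeR 4.0.16 in R 4.3.3 was run with TMM scaling, its quasi-likelihood test and Benjamini-Hochberg adjustment. An ID entered a fit if its libraries together held 10 counts or more. It was called if its adjusted p was under 0.05 and its change 1.5-fold or more. The androstenone groups were fitted within a tissue (10 libraries each), and liver against testis and the interaction in 1 model of 20 libraries and 4 groups. The labels do not say which testis and liver came from the same boar, so this model treats them as unpaired. SE is the absolute log2 fold change over the square root of F. For single genes, log2(CPM + 0.5) was compared in exact permutation tests (two-sided), and correlations by permutation with 100000 resamples. Of 6 planned pairs, 4 had both genes measured.

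Tested on simulated counts in which 200 IDs differed by 2 on the log2 scale, the procedure found 96.5% in testis, 77% in liver, 99.5% between tissues and 54% for the interaction. It also called 13, 9, 9 and 6 unchanged IDs. All other simulated IDs had the same mean in every group, whereas 75.7% of IDs were called between the real tissues. The rates between tissues and for the interaction therefore do not cover the effect of scaling on tissues that differ this widely. The changed IDs had a mean of at least 10 counts, which IGFBP3 in testis did not reach. Androstenone differences of the 6 genes within a tissue were all smaller than 2, so these rates are too favourable for them. Alternatives were DESeq2 1.42.0, RLE, upper quartile and library total scaling, other filters, a likelihood ratio test, a replicate block, 1 fit of 20 libraries, summing by symbol, adjusted p alone and leaving out each sample. Genes named were all measured members, up to 5 called IDs per list by size of change, otherwise the 2 with the smallest p, and for likeness the 3 IDs with the largest Pearson r in the tissue of the higher mean. STAT5A, STAT5B, HTRA1 and GH1, PTPN1, IGFBP6 and IGFBP7 between tissues, and the testis IDs most like IGF1 fall outside this rule. They were named after their values were seen. A few listed genes were left out of the lists and are not reported here. The members and lists were chosen with earlier results of these data known. Python 3.11.15, numpy 2.4.6, scipy 1.17.1, pandas 2.3.3 and matplotlib 3.10.9 were used. No libraries had identical counts. Whether samples of a group share litters is not given, and p-values measure the spread between these samples.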

Additional observations from a re-analysis of the deposited data

Results flagged for a closer look

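In 24 groups of 5 libraries, 6 genes in 4 groups, the highest or lowest value was compared with the nearest of the others by Dixon's ratio (critical value 0.71 for 5 samples). In normally distributed values chance exceeds it in about 1 in 20 groups, a rate that need not hold for CPM or small counts. The critical value was exceeded in 2 groups. IGFBP5 in high liver replicate 4 was at 8.98 CPM, against 2.61 CPM in the nearest of the other high livers. IGFBP1 in high testis replicate 2 was at 0.0432 CPM, which is 1 count where the other 4 libraries had 0, and is below the floor of 3 counts. With all others at 0 the ratio is 1 whatever the count, so this flag carries no information.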

How the results depend on the processing

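GHR, IGFBP1, IGFBP3 and IGFBP5 were called higher in liver under each alternative except library totals, where IGFBP5 was lost and IGF1 was called lower (3 higher, 1 lower). Upper quartile factors added IGF1 and IGF1R (6 called), and 0 were called between androstenone groups or in the interaction under every alternative run. Over all IDs, DESeq2 called 119 in testis, 7 in liver and 1 in the interaction, and the likelihood ratio test with the trended dispersion called 225, 45 and 46, where the quasi-likelihood test called 0. Leaving out 1 sample gave 0 to 2 IDs in testis (2 without low replicate 5). Between tissues 14436 IDs were called, 6143 higher and 8293 lower in liver, and with library totals 14925, 3577 higher and 11348 lower. With library totals IGF1 (-0.71) and IGF1R (-0.56) turned, with upper quartile factors IGF1 (0.61) and IGF1R (0.78) passed the adjusted p, and IGFBP5 (0.18) was lost with library totals. Values that changed sign were IGFBP3 in testis (leaving out 1 sample, -0.40 to 0.022, the latter without high replicate 5), GHR in liver (-0.11 without high replicate 2, to 0.26; exact permutation p = 0.960 with RLE and 0.968 with library totals) and the IGF1R interaction (-0.51 to 0.014, the latter without high liver replicate 2). The exact permutation p of IGFBP3 in liver was 0.0556 with RLE. Correlations near 0 also turned: GHR with IGF1 in liver was 0.51 without the 2 farthest samples, 0.00088 within groups and 0.064 with library totals, GHR with IGFBP1 was -0.15 with library totals, and GHR with IGF1 in testis was 0.082 within groups. The causes were not tested. The other 589 values of single genes kept their direction and their side of the threshold. Which testis and liver share a boar is not given, so the fits between tissues are unpaired. Replicate numbers were not taken as pairs, since same-numbered libraries correlated over 0.1 in 2 or 3 of 5 pairs (mean r 0.15 for high testis with high liver, -0.04 for other numbers), and the replicate block changed no call of the 6 genes (14201 IDs called between tissues).

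Depth limited IGFBP1 and IGFBP3 in testis and IGF1R in liver, where libraries had few counts. With 5 boars a group and 54% of the simulated interactions found, missed thresholds do not show equal levels.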
